A study of Mus musculus with 12 samples.

Results

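Heat shock response genes were followed in mouse embryonic fibroblasts (MEFs) with and without the transcription factors TFEB and TFE3, before and after DNA damage. The set was chosen by name: the regulator Hsf1, the chaperones Hspa1a, Hspa1b, Hspa8, Hsph1, Hsp90aa1, Hspb1 and Hspe1, and the co-chaperones Dnajb1 and Bag3. These are 10 of the 24421 genes of the deposited count table. All 10 were found by symbol and passed the filter on low counts, which 15220 genes passed.

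RNA was sequenced from 12 libraries, 3 in each of 4 groups: Null MEFs and TFEB/TFE3 DKO MEFs, each untreated and each after etoposide at 100 micromolar for 8 h. Null is the labels' name for the control MEFs and DKO stands for the double knock-out, which was made by CRISPR editing of both genes. The paper names its control MEFs WT, and the Null libraries were taken to come from them. Etoposide traps topoisomerase II on DNA and leaves double-strand breaks. The paper states that the MEFs are immortalized with SV40, and each genotype is represented by 1 line. The labels call the controls untreated, the word kept here, while the paper's methods give DMSO as the control treatment. The libraries were stranded total RNA libraries depleted of ribosomal RNA, sequenced as pairs of 75 bases. Total RNA was isolated with either of 2 kits, and the labels do not say which kit served which library. Between 45577023 and 104120871 counts per library fell on genes, with 71634158 as the median. The labels do not say that replicates came from separate cultures, so the p-values measure the spread between these samples, which may be technical. In bulk RNA, fewer cells of a type and less RNA per cell cannot be told apart.

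In the heat shock response, unfolded protein draws chaperones away from HSF1, which then binds arrays of short inverted repeats, the heat shock elements, and raises transcription of chaperone genes. HSP70 proteins bind exposed hydrophobic stretches of their clients in cycles of ATP hydrolysis, which J-proteins start and nucleotide exchange factors end, and HSP90, the small heat shock proteins and the chaperonins act beside them. Some members of these families are made at high levels in unstressed cells and others are known mainly for their induction.

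The genotype labels were checked on the targeted genes. Levels are given in CPM, counts per 1000000 of the library size that TMM scaling gives. Tfeb was at 38.9, 39.2 and 42.1 CPM in untreated Null MEFs and at 4.60, 6.09 and 4.68 CPM in untreated DKO MEFs. After etoposide Tfeb was at 11.4, 10.2 and 10.4 CPM in Null MEFs and at 1.92, 1.61 and 2.20 CPM in DKO MEFs. The DKO libraries were below all Null libraries with the same treatment, with a log2 fold change of -2.96 ± 0.10 (SE) untreated (adjusted p = 1.76e-13) and -2.46 ± 0.12 after etoposide (adjusted p = 9.94e-12). Tfe3 was at 115, 110 and 114 CPM in untreated Null MEFs and at 94.1, 93.1 and 91.0 CPM in untreated DKO MEFs. The Tfe3 transcript was thus still counted in the DKO line, at a log2 fold change of -0.29 ± 0.04 (adjusted p = 1.06e-05), and which bases were deleted is not given. After etoposide Tfe3 was at 68.5, 69.6 and 68.1 CPM in Null and at 70.7, 71.2 and 63.4 CPM in DKO MEFs, with overlap between the genotypes (-0.01 ± 0.04, adjusted p = 0.887). Adjusted p stands throughout for the p of the quasi-likelihood test of edgeR, adjusted by Benjamini-Hochberg over all 15220 genes, with a threshold of 0.05, and an error after a log2 fold change is its standard error.

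The fibroblast label was checked on 8 markers, Col1a1, Col1a2, Col3a1, Vim, Fn1, Pdgfra, Pdgfrb and Thy1. Their summed level was 6790, 6788 and 6892 CPM in untreated Null MEFs, 10974, 11576 and 11019 CPM in untreated DKO MEFs, 3849, 3730 and 3724 CPM in Null MEFs after etoposide, and 4956, 5033 and 4690 CPM in DKO MEFs after etoposide. The most abundant marker was Vim in all Null libraries and in 2 untreated DKO libraries, and Fn1 in the other DKO libraries. After etoposide all 8 markers fell in Null MEFs, and in DKO MEFs 7 fell while Thy1 rose, from a mean of 0.0365 to one of 0.129 CPM, with overlapping libraries. Of all genes 36.8% fell in Null and 31.3% in DKO MEFs. Thy1 was at a mean of 4.21 CPM in untreated Null MEFs, so the DKO line is close to lacking this marker. Of 8 markers of other cell types 6 were tested, of which 5 rose in Null MEFs and 6 in DKO MEFs after etoposide (median log2 fold change 2.47 and 3.14). This stands beside 41.7 and 44.0% of all genes, and these shifts go along with the etoposide comparisons of the heat shock genes. The summed level of these 8 markers was 54.2, 55.4 and 57.8 CPM in untreated Null, 15.4, 15.2 and 16.6 CPM in untreated DKO, 66.4, 62.0 and 68.3 CPM in treated Null and 31.6, 31.6 and 33.3 CPM in treated DKO MEFs. Tubb3 made up nearly the whole sum, at a mean of 54.9 and 62.7 CPM in Null and of 14.9 and 29.7 CPM in DKO MEFs, untreated and after etoposide. The other 7 (Epcam, Cdh1, Ptprc, Adgre1, Pecam1, Cdh5 and Myod1) summed to between 0.453 and 1.081 CPM in the untreated libraries and to between 2.22 and 3.05 CPM in the treated ones, with Adgre1 and Myod1 at 0 in all untreated libraries. The part of these marker shifts in the heat shock results was not tested.

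Each comparison counted the members that passed the test beside the share of all genes that did so. The 2 etoposide comparisons ask how damage changes the genes in each genotype. In Null MEFs 6 of the 10 members were higher after etoposide (Hspa1b, Hspa8, Dnajb1, Bag3, Hspb1 and Hspe1), beside 41.7% of all genes, and 2 were lower (Hsf1 and Hsph1), beside 36.8%. In DKO MEFs 6 were higher (Hspa1a, Hspa1b, Hspa8, Dnajb1, Hspb1 and Hspe1), beside 44.0% of all genes, and 1 was lower (Hsph1), beside 31.3%. The members' median log2 fold change was 0.30 in Null and 0.35 in DKO MEFs, beside 0.07 and 0.14 over all genes. Without DKO etoposide library 2 the members lower in DKO MEFs were 2, Hsph1 and Bag3. With limma-trend, Hspa1a (adjusted p = 0.0575) and Hspa1b (adjusted p = 0.0733) were not called in DKO MEFs, where 44.1% of all genes were higher. In Null MEFs limma-trend did not call Hspa8 (adjusted p = 0.219), beside 41.9% of all genes higher. That call was also lost with robust dispersion and for 5 of the 6 Null libraries left out in turn.

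The genotypes were compared within each treatment. Untreated, 2 members were higher in DKO than in Null MEFs (Dnajb1 and Bag3), beside 33.4% of all genes, and 4 were lower (Hsf1, Hsph1, Hspb1 and Hspe1), beside 34.1%. Their number was 6 without Null untreated library 3, which added Hspa1a and Hsp90aa1. After etoposide 2 were higher in DKO MEFs (Hsf1 and Hsph1), beside 36.9% of all genes, and 2 were lower (Dnajb1 and Hspb1), beside 35.2%. The count of members higher was 1 without DKO etoposide library 1 and 0 without library 2. With DESeq2, its size factors in edgeR or a filter at a mean of 1 CPM this count was 0, and with library size alone 1. With no filter 4 members were lower, and with library size alone or DESeq2's size factors 3 were, which added Hspe1. Hspe1 also passed as lower with DESeq2, limma-trend, the filter at a mean of 1 CPM and robust dispersion. The interaction, the response of DKO MEFs minus that of Null MEFs, was above 0 for 2 members (Hsf1 and Hsph1), beside 29.9% of all genes, and below 0 for 2 (Dnajb1 and Bag3), beside 24.7%. It was above 0 for 3 members without Null untreated library 3, which added Hspa1a, and without any of the 3 Null etoposide libraries, which added Hspa8. Scaled by library size alone, it was above 0 for 5 members and below 0 for 1, beside 38.0 and 20.4% of all genes. The etoposide comparisons share their untreated libraries with the untreated genotype comparison and their treated libraries with the other, so the 5 comparisons are not independent. In each of them 54.6 to 78.4% of all genes were past the threshold.

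Scaling by library size alone, in place of TMM, moved the median change over all genes, on the log2 scale, by 0.17 for etoposide in Null MEFs, 0.27 for etoposide in DKO MEFs, -0.12 for DKO against Null untreated, -0.02 after etoposide and 0.11 for the interaction. Of the genes past the threshold, the share that was higher went from 53.1 to 63.8%, from 58.5 to 75.9%, from 49.5 to 38.2%, from 51.2 to 49.9% and from 54.8 to 65.0%. With library size alone 50.3% of all genes were higher and 28.6% lower after etoposide in Null MEFs, 61.4 and 19.5% in DKO MEFs, 26.3 and 42.5% in untreated DKO against Null MEFs, and 38.0 and 20.4% were above and below 0 in the interaction. The changes given here are relative to the TMM scaling, and a gene whose direction turns under library size alone is named with its value. Under that scaling the values of all 10 members were above 0 for etoposide in DKO MEFs, and 9 of them passed, with Hsp90aa1 as the exception, beside the 61.4% of all genes that were higher.

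**Figure D1:**
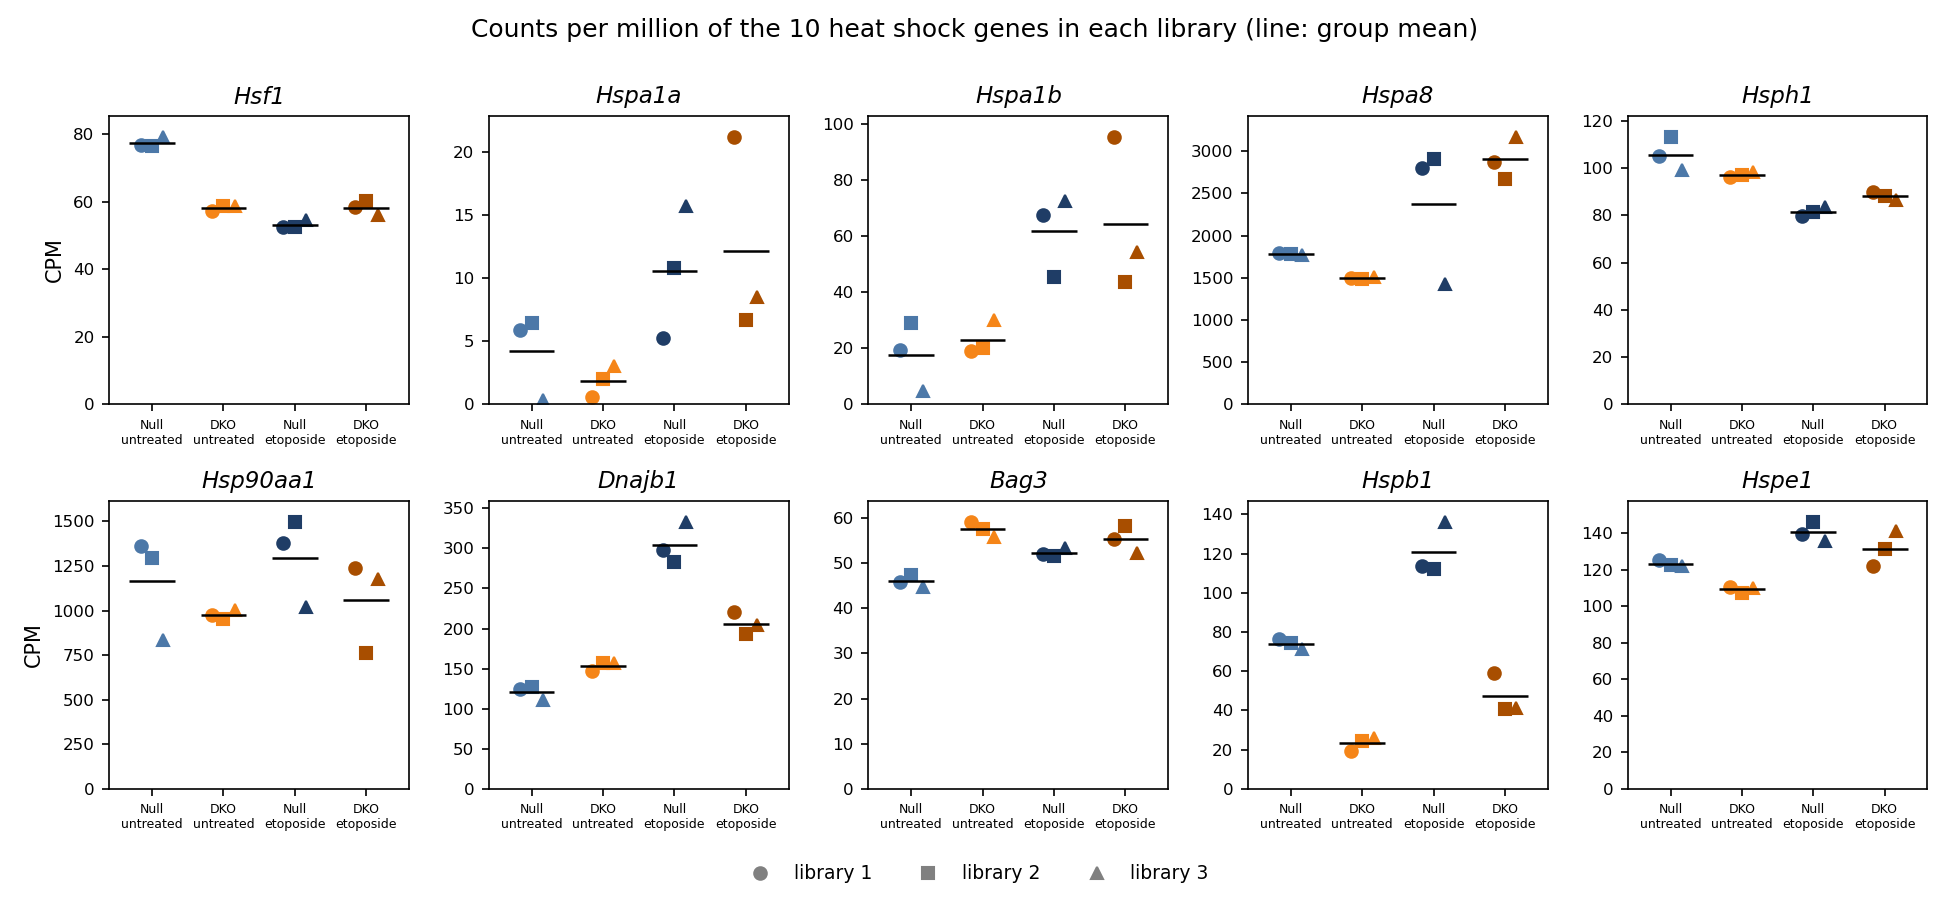
Level of each member in CPM (vertical axis from 0) in the 12 libraries, with circles, squares and triangles for libraries 1, 2 and 3 of a group and a line at the group mean. Hsf1, Hsph1, Bag3 and Hspe1 lie close within groups, while Hspa1a runs from 0.340 to 21.2 CPM and Hspa8 from 1421 to 3165 CPM.

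Hsf1 (chr15:76477422-76501913 on GRCm38) codes for the factor that drives the response. It was at 76.9, 76.6 and 79.1 CPM in untreated Null MEFs and at 52.6, 52.4 and 54.6 CPM after etoposide. In DKO MEFs Hsf1 was at 57.3, 58.7 and 58.8 CPM untreated and at 58.3, 60.3 and 55.9 CPM after etoposide. The untreated Null libraries stood above the other 9, and the DKO libraries overlapped between treatments. Hsf1 fell in Null MEFs, by a log2 fold change of -0.54 ± 0.04 (adjusted p = 3.2e-10), and in DKO MEFs it was at -0.00 ± 0.04 (adjusted p = 0.965), or 0.27 with library size alone. Its level was lower in DKO than in Null MEFs before treatment (-0.41 ± 0.04, adjusted p = 1.95e-08). After etoposide it was higher in DKO MEFs by 0.13 ± 0.04 (adjusted p = 0.0037), a call that was lost without DKO etoposide library 2 (0.09, adjusted p = 0.0645). DESeq2, its size factors in edgeR and the filter at a mean of 1 CPM put this difference at 0.07, past no threshold. The responses differed between genotypes by an interaction of 0.54 ± 0.05 (adjusted p = 1.1e-07).

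Hspa1a and Hspa1b code for the inducible HSP70 and are nearly identical copies, each of 1 exon, on the same strand 9951 bases apart (chr17:34969190-34972156 and chr17:34956436-34959238). The 250 bases before each start, taken from RefSeq on GRCm38.p6, are shown because the members carry the same heat shock motif there. Capitals mark an inward pair of heat shock units, GAANNTTC, which is the same on both strands.
Hspa1a, chr17:34972157-34972406, minus strand: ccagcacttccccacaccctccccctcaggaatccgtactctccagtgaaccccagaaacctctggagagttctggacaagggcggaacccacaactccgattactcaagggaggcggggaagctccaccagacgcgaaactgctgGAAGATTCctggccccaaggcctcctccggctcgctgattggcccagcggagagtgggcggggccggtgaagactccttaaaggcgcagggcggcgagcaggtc
Hspa1b, chr17:34959239-34959488, minus strand: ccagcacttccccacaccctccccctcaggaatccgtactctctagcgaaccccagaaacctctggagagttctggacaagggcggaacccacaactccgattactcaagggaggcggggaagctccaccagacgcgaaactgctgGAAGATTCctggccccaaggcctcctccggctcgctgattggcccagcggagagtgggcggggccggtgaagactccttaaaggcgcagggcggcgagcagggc
The stretches are identical at 247 of 250 positions (98.8%), and in both the motif begins at -104 from the start site. The inward pair was found in 7.86% of 32851 mouse promoter windows of 300 bases, from 250 before to 50 after the start.

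Hspa1b was at 19.2, 28.8 and 4.54 CPM in untreated Null MEFs and at 67.3, 45.4 and 72.6 CPM after etoposide. In DKO MEFs Hspa1b was at 18.8, 20.1 and 30.1 CPM untreated and at 95.2, 43.5 and 54.2 CPM after etoposide. Null untreated library 3 stood far below all others, and every treated library was above every untreated one in both genotypes. Hspa1b rose by 1.81 ± 0.41 on the log2 scale in Null MEFs, 3.52-fold (adjusted p = 0.000662), and by 1.48 ± 0.40 in DKO MEFs, 2.79-fold (adjusted p = 0.00323). In DKO MEFs limma-trend gave 1.43 with an adjusted p of 0.0733. The interaction was -0.33 ± 0.56 (adjusted p = 0.649), from -0.86 without Null untreated library 2 to 0.12 without Null untreated library 3. Between genotypes Hspa1b differed by less than its spread, at 0.38 ± 0.42 untreated (adjusted p = 0.434; from 0.91 without Null untreated library 2 to -0.06 without library 3) and 0.05 ± 0.38 after etoposide (adjusted p = 0.917). The latter value turned to -0.14 without Null etoposide library 2 and to -0.35 without DKO etoposide library 1, and lay between -0.01 and 0.00 with DESeq2, its size factors and the filter at 1 CPM.

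Hspa1a, the rarer copy, was at 5.89, 6.47 and 0.340 CPM in untreated Null MEFs and at 5.21, 10.8 and 15.7 CPM after etoposide. In DKO MEFs Hspa1a was at 0.572, 1.96 and 3.00 CPM untreated and at 21.2, 6.65 and 8.53 CPM after etoposide. The DKO treatments did not overlap, the Null treatments did, and library 3 of the untreated Null MEFs was again the lowest of its group. Hspa1a rose in DKO MEFs by 2.70 ± 0.69 on the log2 scale (adjusted p = 0.00207), by 2.04 without DKO etoposide library 1, and limma-trend gave 2.80 with an adjusted p of 0.0575. In Null MEFs the difference of 1.30 ± 0.62 did not pass (adjusted p = 0.0667). It passed without Null untreated library 2 (1.69, adjusted p = 0.0422) or Null etoposide library 1 (1.62, adjusted p = 0.0351), with library size alone (1.47), with no filter (1.27) and with edgeR's newer quasi-likelihood method (1.27, adjusted p = 0.0415). It was lower without Null etoposide library 3 (0.90, adjusted p = 0.244) and without Null untreated library 3 (0.76, adjusted p = 0.183). The interaction was 1.40 ± 0.92 (adjusted p = 0.217), and with 1 library left out it ranged from 0.74 without DKO etoposide library 1 (adjusted p = 0.534) to 1.93 without Null untreated library 3 (adjusted p = 0.0312). Against Null MEFs, Hspa1a in DKO MEFs was at -1.22 ± 0.71 untreated (adjusted p = 0.139), at -1.75 without the same library (adjusted p = 0.0115), at -0.82 without Null untreated library 2 (adjusted p = 0.38) or DKO untreated library 1 (adjusted p = 0.363), and at -1.23 with no filter (adjusted p = 0.0402). After etoposide that difference was 0.18 ± 0.59 (adjusted p = 0.803), -0.16 without Null etoposide library 1 and -0.49 without DKO etoposide library 1.

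Of the counts on both copies, Hspa1b took from 76.5% in Null untreated library 1 (95% exact Clopper-Pearson interval 74.6 to 78.3%) to 97.1% in DKO untreated library 1 (96.0 to 97.9%). These intervals cover counting error only. Of the 75-base stretches of Hspa1a transcripts in GENCODE M21, 52.7% also occur in Hspa1b transcripts, and how many read pairs could be placed on 1 copy was not tested. The counts of both copies were also summed, a choice made after the values were seen. The sum rose by 1.73 ± 0.43 in Null MEFs (adjusted p = 0.00159) and by 1.62 ± 0.43 in DKO MEFs (adjusted p = 0.00281), and its interaction was -0.11 ± 0.60 (adjusted p = 0.903). The summed level was 21.8 ± 15.5 CPM (SD) in untreated Null MEFs, 24.8 ± 7.26 CPM in untreated DKO MEFs, 72.3 ± 16.1 CPM in Null MEFs after etoposide and 76.4 ± 35.1 CPM in DKO MEFs after etoposide. By genotype the sum differed by 0.18 ± 0.44 untreated (adjusted p = 0.741), where Hspa1a alone is at -1.22.

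Hspa8 (chr9:40800984-40810087) codes for HSC70, the constitutive HSP70 of the cytosol. It was at 1794, 1782 and 1767 CPM in untreated Null MEFs and at 2798, 2903 and 1421 CPM after etoposide. In DKO MEFs Hspa8 was at 1495, 1485 and 1502 CPM untreated and at 2872, 2675 and 3165 CPM after etoposide. Untreated libraries lay close together within each genotype, while Null etoposide library 3 was below every untreated Null library. Hspa8 rose in DKO MEFs by 0.96 ± 0.17, 1.94-fold (adjusted p = 7.38e-05). In Null MEFs it rose by 0.41 ± 0.17 (adjusted p = 0.0311), and this call rested on single libraries. Leaving out any of the 3 untreated Null libraries gave 0.40 to 0.41 with adjusted p from 0.0609 to 0.0734, leaving out Null etoposide library 1 or 2 gave 0.27 and 0.24, past no threshold, and without library 3 it was 0.67 (adjusted p = 1.61e-09). The call was also lost, at changes of similar size, with limma-trend (0.34, adjusted p = 0.219), robust dispersion (0.41, adjusted p = 0.13) and a fit of only these 6 libraries (0.42, adjusted p = 0.0572).

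The interaction for Hspa8 was 0.54 ± 0.23 (adjusted p = 0.0603). It passed without Null etoposide library 1 (0.68), library 2 (0.71) or library 3 (0.28, adjusted p = 0.0012), with the replicate number as a block (0.57, adjusted p = 0.0459), with library size alone (0.65) and with no filter (0.53). Untreated, Hspa8 was lower in all 3 DKO libraries than in all Null libraries, at -0.25 ± 0.17, which did not pass in the fit of 12 libraries (adjusted p = 0.189) and did in a fit of the 6 untreated ones (-0.26, adjusted p = 7.62e-08) and without both Null libraries numbered 3 (-0.26, adjusted p = 0.000226). After etoposide the genotypes overlapped, at 0.29 ± 0.17 (adjusted p = 0.127). This difference passed without Null etoposide library 1 (0.42, adjusted p = 0.0496) or library 2 (0.45, adjusted p = 0.0276) and with no filter (0.27, adjusted p = 0.0497), and was 0.03 without library 3.

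Hsph1 (chr5:149614287-149636376) codes for HSP110, a relative of HSP70 that serves it as a nucleotide exchange factor. Its RefSeq window holds 3 alternating heat shock units, that is, an inward pair GAANNTTC and an outward pair TTCNNGAA with a unit in common, on either strand. By construction such a match contains both shorter pairs, and 0.603% of the 32851 windows hold one. The 30 bases around them, within the transcribed part of Hsph1 (chr5:149636287-149636316, minus strand, GRCm38.p6), are shown with the units in capitals.
Hsph1: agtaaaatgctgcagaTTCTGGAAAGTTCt
The units begin at 37 from the start site of 1 RefSeq entry and at 16 from that of the other.

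Hsph1 was at 105, 113 and 99.3 CPM in untreated Null MEFs and at 79.7, 81.6 and 83.6 CPM after etoposide. In DKO MEFs Hsph1 was at 96.4, 96.9 and 98.2 CPM untreated and at 89.7, 88.1 and 86.4 CPM after etoposide. The 4 groups did not overlap, with untreated Null highest and treated Null lowest. Hsph1 fell in Null MEFs by a log2 fold change of -0.37 ± 0.04 (adjusted p = 3.88e-07) and in DKO MEFs by one of -0.14 ± 0.04 (adjusted p = 0.00592), which turned to 0.13 with library size alone. The responses differed by 0.23 ± 0.06 (adjusted p = 0.0032). Between genotypes it was lower in DKO MEFs untreated, at -0.12 ± 0.04 (adjusted p = 0.0161; -0.07 and adjusted p = 0.143 without Null untreated library 2). After etoposide it was higher by 0.11 ± 0.04 (adjusted p = 0.0274). That call was lost without Null etoposide library 1 (0.09) or 2 (0.10) or DKO etoposide library 1 (0.08), 2 (0.09) or 3 (0.11), with adjusted p from 0.0517 to 0.165, and with DESeq2 (0.05), its size factors (0.05), library size alone (0.09), no filter (0.09) and the filter at 1 CPM (0.05).

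Hsp90aa1 (chr12:110690605-110702728) codes for the stress-inducible HSP90 of the cytosol. It was at 1364, 1294 and 833 CPM in untreated Null MEFs and at 1377, 1496 and 1019 CPM after etoposide. In DKO MEFs Hsp90aa1 was at 978, 950.4 and 1005 CPM untreated and at 1240, 761 and 1175 CPM after etoposide. Library 3 was the lowest in both Null groups and library 2 in the treated DKO group, and the groups overlapped in all 4 comparisons between them. None of its differences passed with all libraries and the filter on low counts: 0.16 ± 0.18 for etoposide in Null MEFs (adjusted p = 0.426), 0.12 ± 0.18 in DKO MEFs (adjusted p = 0.567), and an interaction of -0.04 ± 0.25 (adjusted p = 0.915). Without Null untreated library 3 the first was -0.05, and without DKO etoposide library 1 the second was -0.03. The interaction was 0.16, 0.00, 0.07 and 0.14 without Null untreated library 3, Null etoposide library 1, Null etoposide library 2 and DKO etoposide library 2, and 0.06 with library size alone. DKO against Null gave -0.25 ± 0.18 untreated (adjusted p = 0.223; from -0.12 and 0.595 without Null untreated library 1 to -0.44 and 0.0235 without library 3) and -0.29 ± 0.18 after etoposide (adjusted p = 0.149; -0.12 and 0.53 without DKO etoposide library 2, -0.44 and 0.0427 without Null etoposide library 3, -0.31 and 0.0335 with no filter).

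Its constitutive partner Hsp90ab1 varied little within groups, at 3418 ± 84.1 CPM (SD) in untreated Null, 2447 ± 4.40 in untreated DKO, 3559 ± 65.9 in treated Null and 2596 ± 70.0 in treated DKO MEFs. In DKO against Null MEFs Hsp90ab1 was lower, with a log2 fold change of -0.48 ± 0.02 untreated (adjusted p = 2.76e-11) and -0.45 ± 0.02 after etoposide (adjusted p = 5.05e-11), and rose with etoposide by 0.06 ± 0.02 in Null (adjusted p = 0.0422) and 0.09 ± 0.02 in DKO MEFs (adjusted p = 0.00548). With library size alone these rises were 0.23 in Null and 0.36 in DKO MEFs.

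Dnajb1 (chr8:83608193-83612653) codes for HSP40, the J-protein that starts the ATPase of HSP70. It was at 125, 127 and 111 CPM in untreated Null MEFs and at 298, 283 and 333 CPM after etoposide. In DKO MEFs Dnajb1 was at 146, 158 and 157 CPM untreated and at 221, 193 and 204 CPM after etoposide. The 4 groups did not overlap, and the order of the genotypes was opposite in the 2 treatments. Dnajb1 rose by 1.33 ± 0.06 in Null MEFs, 2.52-fold (adjusted p = 5.69e-12), and by 0.42 ± 0.06 in DKO MEFs, 1.34-fold (adjusted p = 1.47e-05). The interaction of -0.91 ± 0.09 (adjusted p = 2.41e-07) was the lowest among the members. DKO against Null was 0.34 ± 0.06 untreated (adjusted p = 0.000148) and -0.56 ± 0.06 after etoposide (adjusted p = 4.66e-07). The relative J-protein Dnaja1 went from 130.0 ± 1.77 to 116 ± 3.99 CPM (SD) in Null MEFs. It fell there by a log2 fold change of -0.16 ± 0.04 (adjusted p = 0.00073), or was at 0.01 with library size alone. In DKO MEFs Dnaja1 went from 117 ± 4.28 to 123 ± 0.764 CPM (0.07 ± 0.04, adjusted p = 0.0905), or 0.34 with library size alone (adjusted p = 2.72e-07). Its interaction was 0.23 ± 0.05 (adjusted p = 0.00111). Neither RefSeq window of Dnajb1 holds a pair of heat shock units in these letters.

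Bag3 (chr7:128523616-128546981) codes for a nucleotide exchange factor that links HSP70 to small heat shock proteins and to selective autophagy. It was at 45.8, 47.3 and 44.7 CPM in untreated Null MEFs and at 52.1, 51.6 and 53.4 CPM after etoposide. In DKO MEFs Bag3 was at 59.1, 57.7 and 55.8 CPM untreated and at 55.3, 58.3 and 52.2 CPM after etoposide. The untreated Null libraries were below the other 9, and the DKO libraries overlapped between treatments. Bag3 rose in Null MEFs by 0.19 ± 0.04 (adjusted p = 0.000711). In DKO MEFs it was at -0.06 ± 0.04 (adjusted p = 0.213), at -0.12 without DKO etoposide library 2 (adjusted p = 0.0244), at -0.03 without library 3 (adjusted p = 0.536), and at 0.21 with library size alone. The interaction was -0.25 ± 0.06 (adjusted p = 0.00215), or -0.14 and past no threshold with library size alone (adjusted p = 0.0527). Untreated, Bag3 was higher in DKO MEFs by 0.32 ± 0.04 (adjusted p = 3.34e-06). After etoposide the difference was 0.08 ± 0.04 (adjusted p = 0.11), and it ranged from 0.02 without DKO etoposide library 2 (adjusted p = 0.694) to 0.11 without library 3 (adjusted p = 0.0298).

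Hspb1 (chr5:135887919-135889563) codes for HSP25, a small heat shock protein that holds unfolded proteins without ATP. The 250 bases before its start (chr5:135887669-135887918, plus strand, RefSeq on GRCm38.p6) hold the inward pair at 2 places, marked in capitals. They are shown because this member differed most between the genotypes when all libraries were used. Without Null untreated library 3, Hspa1a was at -1.75 in untreated DKO against Null MEFs.
Hspb1: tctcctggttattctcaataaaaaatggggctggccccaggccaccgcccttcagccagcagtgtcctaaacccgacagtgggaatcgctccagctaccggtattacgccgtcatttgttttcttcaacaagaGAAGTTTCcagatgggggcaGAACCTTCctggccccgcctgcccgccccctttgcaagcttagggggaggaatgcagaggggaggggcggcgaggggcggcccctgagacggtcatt
Hspb1 was at 76.5, 74.3 and 71.2 CPM in untreated Null MEFs and at 114, 112 and 136 CPM after etoposide. In DKO MEFs Hspb1 was at 19.4, 24.3 and 25.7 CPM untreated and at 59.0, 41.0 and 41.4 CPM after etoposide. All DKO libraries were below all Null libraries, treated ones included, and within a genotype the treated ones were above the untreated ones. The log2 fold change of Hspb1 in DKO against Null MEFs was -1.68 ± 0.12 untreated (adjusted p = 2.74e-09), 0.313 times the Null level, and -1.36 ± 0.12 after etoposide (adjusted p = 1.89e-08). It rose with etoposide by 0.70 ± 0.12 in Null MEFs (adjusted p = 3.37e-05) and by 1.02 ± 0.12 in DKO MEFs (adjusted p = 1.38e-06). The interaction was 0.31 ± 0.17 and did not pass (adjusted p = 0.13); it was 0.42 with library size alone (adjusted p = 0.0473) and 0.11 without DKO etoposide library 1 (adjusted p = 0.495).

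Hspe1 (chr1:55088132-55091307) codes for HSP10, the lid of the mitochondrial chaperonin, and lies head to head with Hspd1, which codes for the HSP60 ring, with 112 bases in common. Its RefSeq window holds overlapping matches of 3 heat shock units, at -89 and -84 from the start of Hspe1 and within an exon of Hspd1. The 30 bases there (chr1:55088053-55088082, plus strand, GRCm38.p6) are shown, with the units in capitals, because both genes begin near them.
Hspe1: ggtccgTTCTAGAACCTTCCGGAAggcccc
Hspe1 was at 125, 123 and 122 CPM in untreated Null MEFs and at 139, 146 and 136 CPM after etoposide. In DKO MEFs Hspe1 was at 110.2, 107 and 110.1 CPM untreated and at 122, 131 and 141 CPM after etoposide. Treated libraries were above untreated ones within each genotype, and the genotypes overlapped after etoposide only. Hspe1 rose by 0.19 ± 0.05 in Null MEFs (adjusted p = 0.00131) and by 0.27 ± 0.05 in DKO MEFs (adjusted p = 5.66e-05), with an interaction of 0.08 ± 0.06 (adjusted p = 0.307; 0.19 and 0.0167 with library size alone, 0.02 and 0.823 without DKO etoposide library 3). It was lower in untreated DKO MEFs, at -0.18 ± 0.05 (adjusted p = 0.00265). After etoposide the difference was -0.09 ± 0.05 (adjusted p = 0.0728). It was at -0.06 without DKO etoposide library 1 (adjusted p = 0.19). It passed without library 3 (-0.16, adjusted p = 0.00279) and under 7 other settings, from -0.09 with robust dispersion to -0.16 with the filter at 1 CPM.

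Hspd1 had another pattern than its neighbour, at 520.0 ± 11.9 CPM (SD) in untreated Null, 536 ± 21.0 in treated Null, 509 ± 9.84 in untreated DKO and 738 ± 45.9 in treated DKO MEFs. Hspd1 rose in DKO MEFs by 0.53 ± 0.04 (adjusted p = 4.61e-09), in Null MEFs it was at 0.04 ± 0.04 (adjusted p = 0.33; 0.21 and 0.000172 with library size alone), and the interaction was 0.49 ± 0.06 (adjusted p = 2.09e-06).

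**Figure D2:**
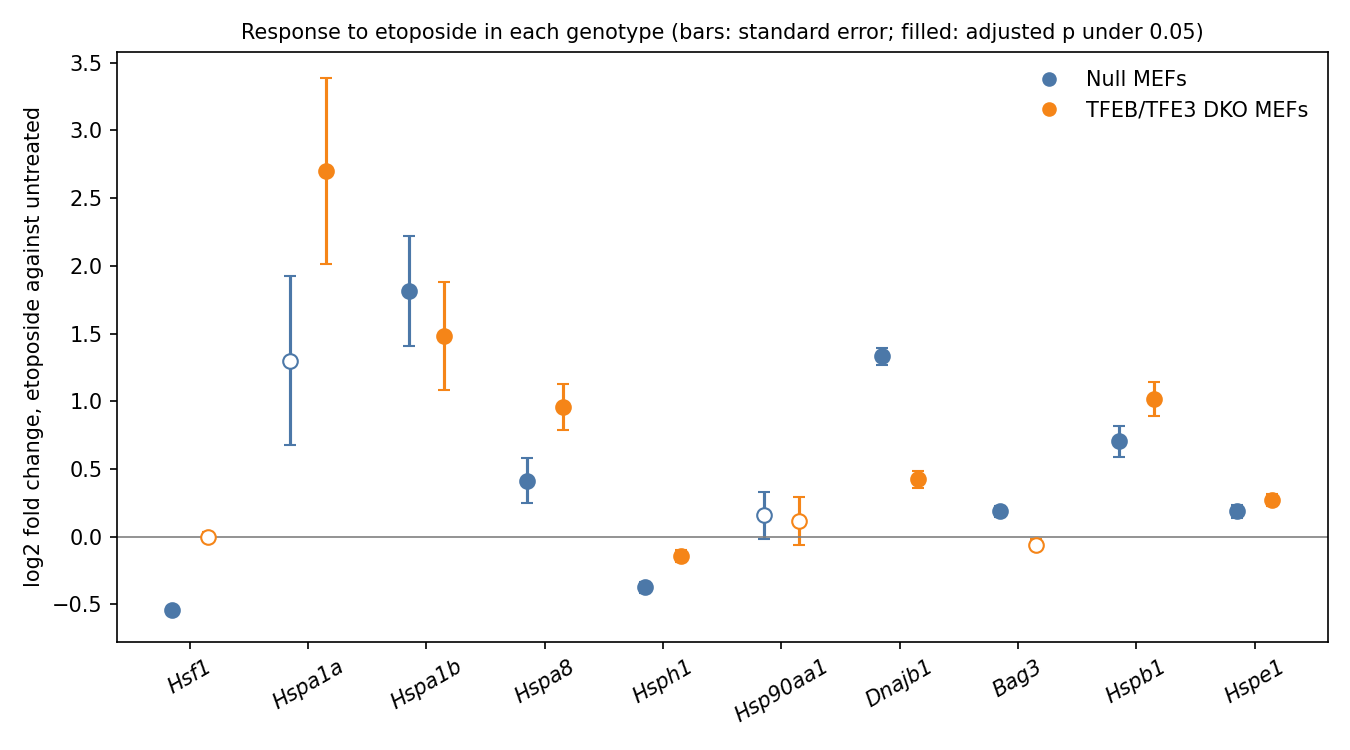
Log2 fold change of each member after etoposide in Null MEFs (blue) and DKO MEFs (orange), with bars for the standard error and filled circles for an adjusted p under 0.05. Hsf1 and Dnajb1 lie apart between the genotypes, at -0.54 and -0.00 and at 1.33 and 0.42, and the bars are widest for Hspa1a; with library size alone Hsf1 is at 0.27, Hsph1 at 0.13 and Bag3 at 0.21 in DKO MEFs.

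Levels were compared between genes as CPM per kilobase of the gene's summed exons. Pairs that align to several places were not counted, the lengths were not corrected for this, and its part in the order was not tested. In untreated Null MEFs Hspa8 was highest at 414 ± 3.15 (SD), followed by Hsp90aa1 at 296 ± 73.4, Hspe1 at 83.6 ± 1.22, Hspb1 at 71.8 ± 2.60, Dnajb1 at 37.8 ± 2.66, Bag3 at 17.9 ± 0.509, Hsph1 at 14.6 ± 0.956, Hsf1 at 10.9 ± 0.190, Hspa1b at 6.25 ± 4.36 and Hspa1a at 1.43 ± 1.14. Of the neighbours in this order, Hspa1b and Hspa1a overlapped between libraries and no others did. In untreated DKO MEFs Hspb1 stood lower, at 22.4 ± 3.22 CPM per kilobase, and overlapped Bag3 at 22.5 ± 0.642, and Hspa1b overlapped Hsf1 near 8.20. After etoposide in Null MEFs Hspb1 was in the third place at 117 ± 12.98 CPM per kilobase, and overlaps were found between Hspa8 at 552 ± 192 and Hsp90aa1 at 330.0 ± 63.2, between Hspe1 and Dnajb1 (95.3 ± 3.49 and 95.1 ± 7.92), and between Hspa1b and Bag3 (22.0 ± 5.16 and 20.4 ± 0.361). After etoposide in DKO MEFs the order began with Hspa8 at 675 ± 57.3 CPM per kilobase, Hsp90aa1 at 269 ± 66.1 and Hspe1 at 89.2 ± 6.41, and only Hspa1b and Bag3 overlapped as neighbours (22.9 ± 9.73 and 21.6 ± 1.197). In CPM, Hspa8 and Hsp90aa1 held between 73.4 and 87.1% of the members' sum in each library, a sum of 3514 ± 332 CPM (SD) in untreated Null, 2995 ± 44.6 in untreated DKO, 4497 ± 1020 in treated Null and 4625 ± 497 in treated DKO MEFs.

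The members differed widely in how far libraries of the same group lay apart. The within-group standard deviation of log2 CPM was 1.45 for Hspa1a, 0.80 for Hspa1b, 0.31 for Hsp90aa1, 0.30 for Hspa8, 0.20 for Hspb1, 0.10 for Dnajb1, 0.06 for Hspe1, 0.05 for Hsph1 and Bag3, and 0.04 for Hsf1. The median of the 9353 genes that averaged 10 CPM or more was 0.06, and 98.1% or more of them had a smaller value than each of Hspa1a, Hspa1b, Hsp90aa1, Hspa8 and Hspb1. Hspa1a itself averaged 7.19 CPM and so lies outside the set it was ranked against. Single libraries carry part of the members' spread. Without Null untreated library 3 the spread was 0.91 for Hspa1a and 0.44 for Hspa1b. Without Null etoposide library 3 it was 0.07 for Hspa8, under the 0.10 of Dnajb1, and without Null untreated library 2 it was 0.03 for Hsph1. The same 5 members share the most sequence with other genes. Of their 75-base stretches, the length of a read, 54.2% of Hspa1a, 55.8% of Hspa1b, 46.4% of Hspb1, 42.8% of Hsp90aa1 and 32.2% of Hspa8 occur unchanged in a GENCODE M21 gene elsewhere, against 11.9% of Hspe1 and 0 of the stretches of Hsf1, Hsph1, Dnajb1 and Bag3. Genes whose exons overlap the member at the same place, such as Gm20481 at Hspa1a, were left out here, and with them the share of Hspa1a was 61.7%. Hspa8 shares stretches with 11 genes elsewhere, 10 of them pseudogenes, Hsp90aa1 with 3 pseudogenes and Hspb1 with the pseudogene Hsp25-ps1 and Gm9817. The authors counted uniquely aligned pairs, and 15.9 to 20.5% of a library's summed lines were not unique.

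Other genes, some picked after their values were seen, did not all follow that order. Rps23 (36.4% shared), Ppia (15.02%) and Gapdh (22.6%) had spreads of 1.91, 0.87 and 0.51 on the log2 scale, while Hspd1 shares 29.6% and had a spread of 0.06. Hsp90ab1 shares 0.537% and had a spread of 0.03. Within groups, after each group's mean was taken off, Hspa1b went up and down with Hspa1a (r = 0.88 over the 12 libraries) and also with Hsph1 (r = 0.83) and Dnajb1 (r = 0.80), which share no such stretch with another gene, and with Hsp90aa1 (r = 0.63). Without Null untreated library 3, chosen after the values were seen, r was 0.62 with Hspa1a, 0.56 with Hsph1 and 0.23 with Hsp90aa1. With Hspa8 r was -0.12 (0.10 without Null etoposide library 3) and with Hsf1 -0.24 (0.11 without Null untreated library 3). These are descriptions over 12 libraries of 4 groups. The part of shared sequence in the spread was not tested.

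**Figure D3:**
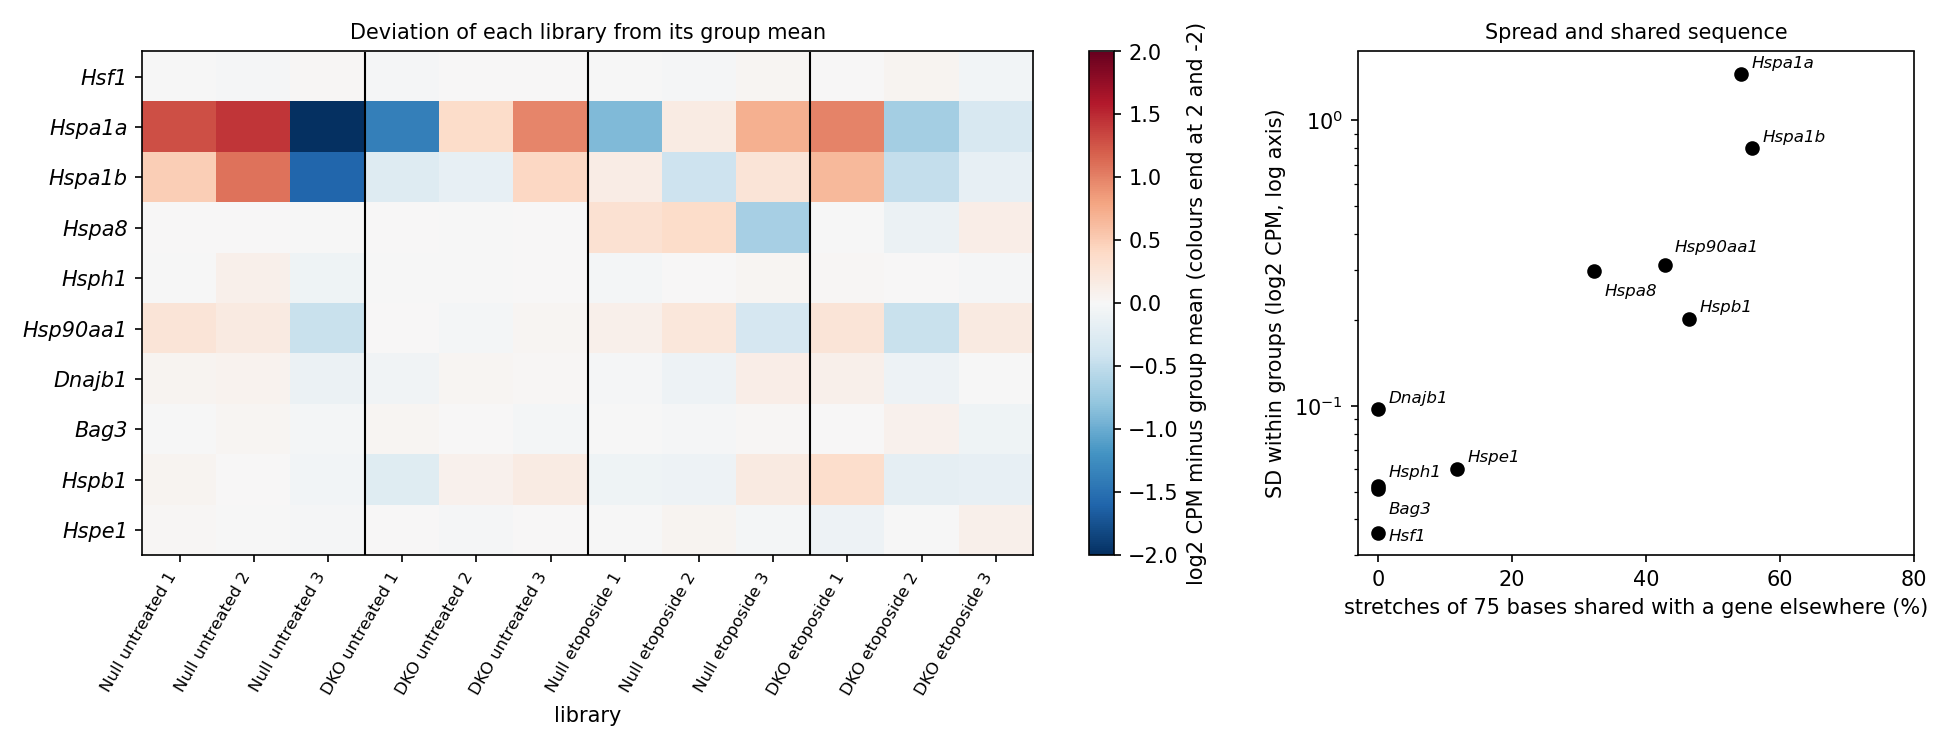
Left, log2 CPM of each member in each library minus its group mean, coloured from -2 to 2, with lines between groups. Right, the within-group standard deviation of log2 CPM (log axis) against the percentage of 75-base stretches shared with a gene elsewhere: the 5 members above 30% shared have the highest spreads, from 0.20 to 1.45, where Hspa8 is at 0.07 without Null etoposide library 3.

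Across all 12 libraries, which share the 4 groups, Hsph1 ran opposite to Dnajb1 (r = -0.91) and with Hsf1 (r = 0.84), and Hsf1 ran opposite to Dnajb1 (r = -0.83). These lie between the groups: after each group's mean was taken off, r was 0.65 for Hsph1 with Dnajb1, -0.01 for Hsph1 with Hsf1 and 0.03 for Hsf1 with Dnajb1. With 1 library left out, the first of these ranged from 0.45 to 0.73. The second ranged from -0.23 to 0.39 and the third from -0.31 to 0.43. The genes of the whole table most like a member were sought among 9353 genes by Pearson's r of log2 CPM over the 12 libraries. For Hspa1b these were Exo5 (0.90), Trmt2a (0.89) and Tmem192 (0.89), for Hsph1 Csnk1g3 (0.97), Caprin1 (0.97) and Opa3 (0.96), and for Bag3 Gnas (0.96), Chst7 (0.96) and Trpv4 (0.95).

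The RefSeq promoter windows used here covered 7 of the 10 members, in 9 entries, and included none for Hsf1, Hspa8 and Hsp90aa1. A pair of heat shock units, inward (GAANNTTC) or outward (TTCNNGAA, in 8.52% of the 32851 windows), was found in 6 of the 7, the exception being Dnajb1. Bag3 holds an inward pair at 43 from its start site. The E-box core CACGTG, letters within the site that TFEB and TFE3 are known to bind, was in the window of 1 member, Hsph1, and in 7.15% of all windows. CCAAT or its complement ATTGG was in 4 members and in 37.4% of all windows. A match is a description of letters and not of binding.

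The wider pathway was described by 69 other genes in 9 lists, of which 68 were tested; Hspb3, at 0 in 3 of the 4 groups, was not. After etoposide 25 rose in Null MEFs (36.8%, beside 41.7% of all genes) and 34 fell (50.0%, beside 36.8%), with a median log2 fold change of -0.11, beside 0.07 for all genes. In DKO MEFs 34 rose (50.0%, beside 44.0%) and 17 fell (25.0%, beside 31.3%), with a median of 0.09, beside 0.14. In untreated DKO against Null MEFs 22 were higher (32.4%, beside 33.4%) and 25 lower (36.8%, beside 34.1%), with a median of -0.05, and these shares lie near those of all genes. After etoposide 36 were higher (52.9%, beside 36.9%) and 16 lower (23.5%, beside 35.2%), with a median of 0.10. The interaction was above 0 for 35 (51.5%, beside 29.9%) and below 0 for 11 (16.2%, beside 24.7%), with a median of 0.17, beside 0.05 for all genes. With library size alone the balance in Null MEFs turned to 32 higher and 22 lower, beside 50.3 and 28.6% of all genes. In DKO MEFs 52 were then higher and 8 lower, beside 61.4 and 19.5%, and in untreated DKO against Null MEFs 39 were lower, beside 42.5%. The counts of each list below stand beside the same shares of all genes, and those with library size alone beside the shares under that scaling.

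Cytosolic HSP90 and its co-chaperones take up and release clients such as kinases and steroid receptors. Of 12 genes 1 rose and 11 fell in Null MEFs, beside 41.7 and 36.8% of all genes (1 and 7 with library size alone, beside 50.3 and 28.6%). In DKO MEFs 3 rose and 3 fell, beside 44.0 and 31.3%; with library size alone these were 10 and 0, beside 61.4 and 19.5%. All 12 interaction values were above 0, and 10 of them passed, beside 29.9% of all genes (12 with library size alone and 8 with DESeq2's size factors, where Hsp90ab1 was at -0.04). Fkbp5, a co-chaperone of steroid receptors, went from 105 ± 5.03 to 56.4 ± 2.09 CPM (SD) in Null MEFs (log2 fold change -0.90 ± 0.04, adjusted p = 3.76e-12) and from 71.5 ± 0.735 to 67.5 ± 2.64 CPM in DKO MEFs (-0.08 ± 0.04, adjusted p = 0.09; 0.19 with library size alone). Its interaction was 0.82 ± 0.06 (adjusted p = 5.75e-09).

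The TRiC chaperonin and prefoldin, which fold actin and tubulin, had 2 genes higher and 9 lower of 14 after etoposide in Null MEFs (beside 41.7 and 36.8% of all genes) and 9 higher and 1 lower in DKO MEFs (beside 44.0 and 31.3%). With library size alone these counts were 6 and 4 in Null (beside 50.3 and 28.6% of all genes) and 14 and 0 in DKO MEFs (beside 61.4 and 19.5%). The interaction was above 0 for 11 (beside 29.9%; 12 with library size alone) and below 0 for 1, Pfdn5 (-0.17, adjusted p = 0.0271; past no threshold with library size alone). Untreated DKO MEFs had 7 of these genes lower and 1 higher (12 and 1 with library size alone), beside 34.1 and 33.4% of all genes, with Cct3 at 466 ± 7.86 against 705 ± 8.89 CPM (SD) and a log2 fold change of -0.60 (adjusted p = 5e-11), and Cct5 at 488 ± 7.45 against 707 ± 5.88 CPM (-0.53, adjusted p = 1.91e-10). Pfdn5 was lower in DKO MEFs both untreated (-0.34, adjusted p = 1.93e-06) and after etoposide, there at 79.1 ± 2.83 against 113 ± 6.23 CPM (-0.51, adjusted p = 1.11e-08).

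Of 8 mitochondrial chaperones and proteases 3 rose and 2 fell in Null MEFs (6 and 2 with library size alone), beside 41.7 and 36.8% of all genes, and 7 rose in DKO MEFs (8 with library size alone), beside 44.0%, where the remaining one, Clpp, was at 0.07. All 8 interaction values were above 0, and 7 of them passed, beside 29.9% of all genes (8 with library size alone and 6 with DESeq2's size factors). Lonp1, the matrix protease, went from 226 ± 12.1 to 255 ± 8.90 CPM (SD) in Null and from 161 ± 1.87 to 320 ± 9.25 CPM in DKO MEFs, and rose by 0.18 ± 0.04 (adjusted p = 0.000854) and 0.99 ± 0.04 (adjusted p = 1.2e-12). Its interaction was 0.81 ± 0.06 (adjusted p = 4.51e-09).

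The other small heat shock proteins, 5 tested of 6 listed, had 3 higher and 1 lower after etoposide in Null MEFs (beside 41.7 and 36.8% of all genes) and 1 higher and 3 lower in DKO MEFs (beside 44.0 and 31.3%; 1 and 2 with library size alone), with 3 interactions below 0 (beside 24.7%). Cryab, alpha B-crystallin, was at 15.2, 13.3 and 12.7 CPM in untreated Null MEFs and at 56.3, 59.2 and 61.8 CPM after etoposide. In DKO MEFs Cryab was at 20.0, 20.1 and 19.5 CPM untreated and at 16.9, 17.8 and 16.2 CPM after etoposide. The treated Null libraries stood above all others. Cryab rose by 2.10 ± 0.06 in Null MEFs, 4.29-fold (adjusted p = 1.26e-14), was at -0.23 ± 0.06 in DKO MEFs (adjusted p = 0.00368; 0.04 with library size alone), and had an interaction of -2.33 ± 0.09 (adjusted p = 2.55e-12). After etoposide its log2 fold change in DKO against Null MEFs was -1.80 ± 0.06 (adjusted p = 1.51e-13).

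Hspb8, which pairs with BAG3, was higher in DKO MEFs both untreated (122 ± 4.04 against 54.4 ± 2.24 CPM, log2 fold change 1.17, adjusted p = 1.14e-12) and after etoposide (171 ± 2.51 against 101 ± 6.73 CPM, 0.76, adjusted p = 1.83e-10), and rose in Null MEFs by 0.89 (adjusted p = 2.07e-11) and in DKO MEFs by 0.49 (adjusted p = 6.4e-08). Hspb6 was higher in DKO MEFs by 0.89 untreated (adjusted p = 2.55e-10) and 1.07 after etoposide (adjusted p = 3.24e-11), and it fell in both genotypes, from 19.6 ± 0.200 to 11.9 ± 0.936 CPM in Null (log2 fold change -0.71, adjusted p = 4.87e-09) and from 36.4 ± 0.619 to 25.0 ± 0.973 CPM in DKO MEFs (-0.54, adjusted p = 1.23e-07).

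Among 8 other cytosolic J-proteins 4 rose and 4 fell in Null MEFs (4 and 2 with library size alone), beside 41.7 and 36.8% of all genes, and 1 rose and 4 fell in DKO MEFs (4 and 2 with library size alone), beside 44.0 and 31.3%. The interaction was above 0 for 2 and below 0 for 3, beside 29.9 and 24.7%, which turned to 4 and 3 with library size alone. Dnajb4 went from 43.5 ± 4.13 to 56.7 ± 2.17 CPM (SD) in Null MEFs and from 130.2 ± 2.54 to 57.3 ± 2.21 CPM in DKO MEFs, an interaction of -1.57 ± 0.08 (adjusted p = 5.67e-11). Untreated, Dnajb4 was higher in DKO MEFs by 1.58 ± 0.06 (adjusted p = 1.59e-13), and it fell there by a log2 fold change of -1.18 ± 0.05 (adjusted p = 4.66e-12). Dnajb5 went from 13.4 ± 0.314 to 22.2 ± 0.311 CPM in Null and from 10.4 ± 0.277 to 7.38 ± 0.274 CPM in DKO MEFs, with an interaction of -1.22 ± 0.08 (adjusted p = 3.05e-09) and a genotype difference of -1.59 ± 0.06 after etoposide (adjusted p = 4.51e-13). Dnaja4 rose in Null MEFs by 0.67 (adjusted p = 1.17e-07) and in DKO MEFs by 0.83 (adjusted p = 5.09e-09), and its interaction of 0.16 ± 0.09 did not pass (adjusted p = 0.16; 0.27 and 0.0235 with library size alone). It was higher in DKO than in Null MEFs both untreated, at 20.1 ± 0.194 against 11.4 ± 1.15 CPM (0.81, adjusted p = 1.59e-08), and after etoposide, at 35.7 ± 1.32 against 18.2 ± 1.12 CPM (0.97, adjusted p = 6.76e-10).

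Of 8 other HSP70 and HSP110 genes 5 rose and 2 fell in both genotypes (beside 41.7 and 36.8% of all genes in Null and 44.0 and 31.3% in DKO MEFs), with Hspa4l, a relative of Hsph1, falling from 170 ± 1.56 to 86.5 ± 2.07 CPM (SD) in Null (log2 fold change -0.97, adjusted p = 1.36e-12) and from 130.1 ± 5.80 to 71.3 ± 3.65 CPM in DKO MEFs (-0.87, adjusted p = 1.03e-11). Untreated, 4 of these were higher and 2 lower in DKO MEFs, beside 33.4 and 34.1%, which turned to 3 and 4 with library size alone. The interaction passed for 1 in each direction (3 above and 1 below 0 with library size alone). In this list Hspa1l and Hspa12a were near the floor, with highest group means of 0.994 and 2.32 CPM. The other nucleotide exchange factors, 5 genes, had 2 higher and 3 lower in Null (2 and 2 with library size alone) and 3 higher and 2 lower in DKO MEFs (3 and 1 with library size alone) after etoposide.

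Of the 4 genes of the HSF family and the HSF binding protein, 3 rose and 1 fell in Null MEFs and 2 rose and 1 fell in DKO MEFs (3 and 0 with library size alone). Hsf2 was the 1 that fell, from 39.3 ± 0.737 to 30.9 ± 0.666 CPM (SD) in Null MEFs (-0.34 ± 0.04, adjusted p = 2.08e-06) and from 43.9 ± 0.633 to 39.7 ± 2.40 CPM in DKO MEFs (-0.14 ± 0.04, adjusted p = 0.00862; 0.13 with library size alone). Its interaction was 0.20 ± 0.06 (adjusted p = 0.0106; 0.14 and 0.0616 with DESeq2's size factors), and its level in DKO MEFs was higher by 0.16 untreated (0.04 and 0.427 with library size alone) and 0.36 after etoposide. Hsf4 and Hsf5 were below 2 CPM in every group mean.

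Of 4 other known targets of HSF1, 2 rose and 1 fell in Null and 3 rose and 1 fell in DKO MEFs. Zfand2a, which codes for a zinc finger protein of the proteasome, rose from 63.5 ± 2.09 to 154 ± 1.81 CPM (SD) in Null (1.28 ± 0.04, adjusted p = 5.12e-15) and from 96.8 ± 1.33 to 162 ± 4.71 CPM in DKO MEFs (0.74 ± 0.04, adjusted p = 7.32e-12). Ubb, a polyubiquitin gene, was at 97.4 ± 17.5 and 87.9 ± 10.6 CPM in Null MEFs (-0.15 ± 0.12, adjusted p = 0.248; 0.02 with library size alone) and at 93.8 ± 13.1 and 148 ± 9.82 CPM in DKO MEFs (0.66 ± 0.12, adjusted p = 8.14e-05), with an interaction of 0.81 ± 0.16 (adjusted p = 0.000501). Serpinh1, the collagen chaperone HSP47, fell in both genotypes, from 1640 ± 9.32 to 1122 ± 38.5 CPM in Null (-0.55, adjusted p = 6.24e-12) and from 2668 ± 50.1 to 1826 ± 24.9 CPM in DKO MEFs (-0.55, adjusted p = 9.51e-12), and fibroblast markers, collagens among them, fell in both too.

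**Figure D4:**
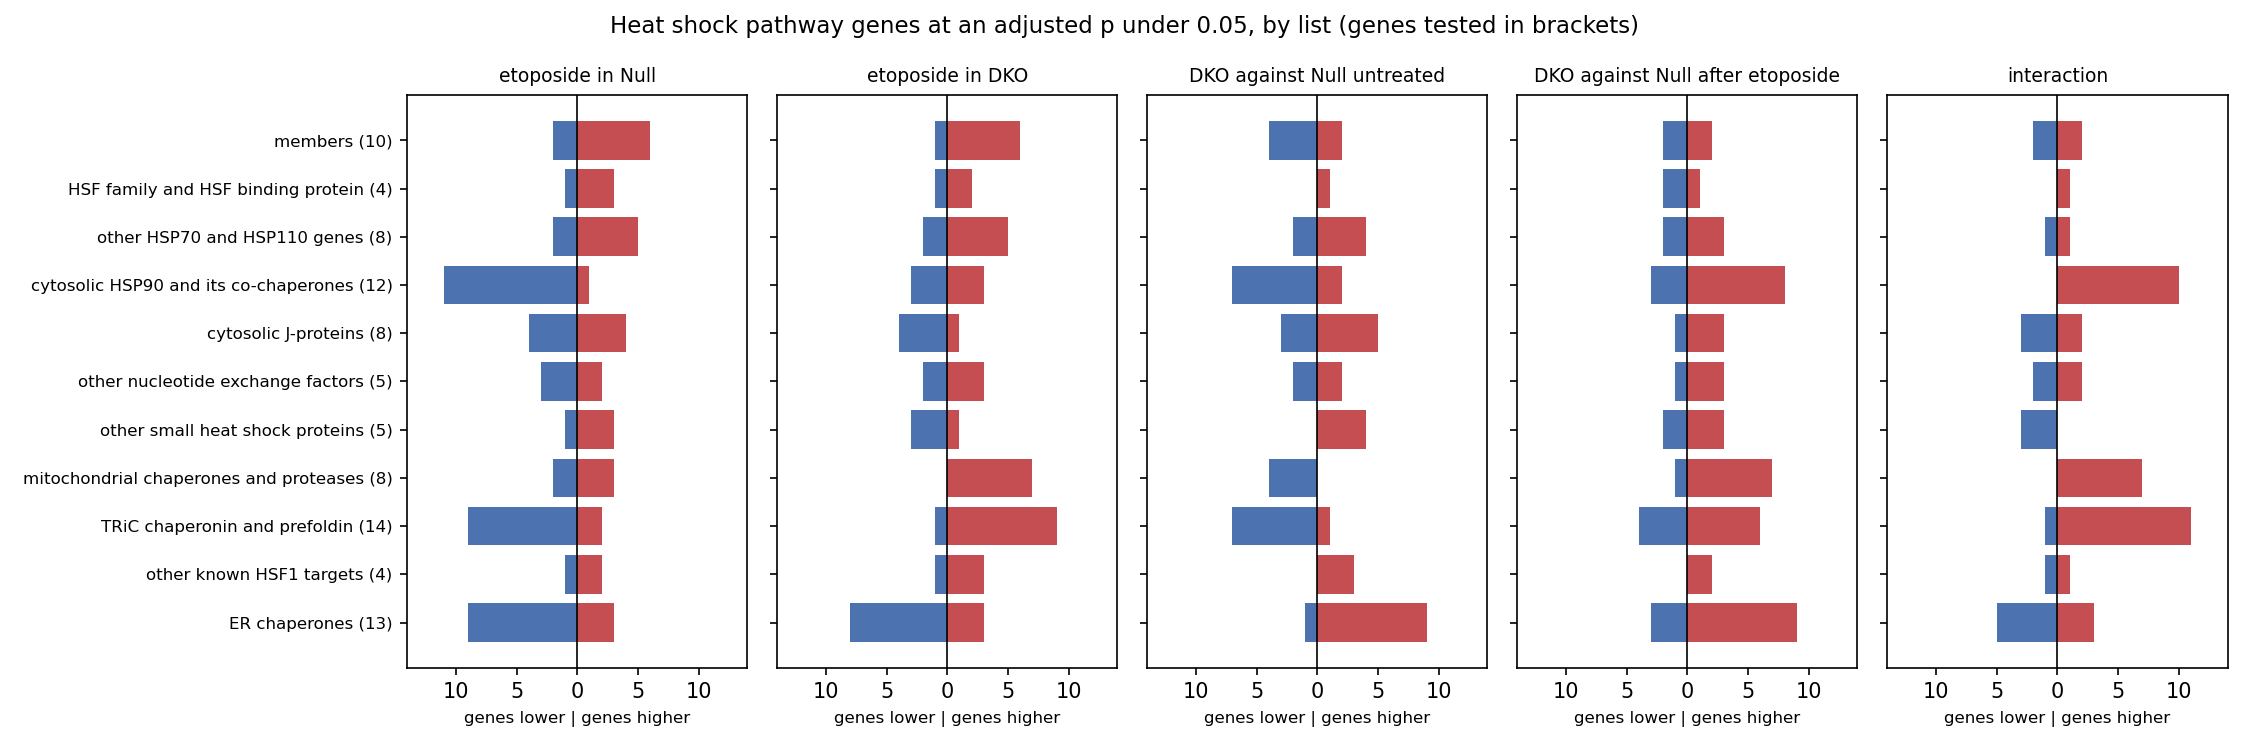
Genes of each list lower (blue, to the left) and higher (red, to the right) at an adjusted p under 0.05 in the 5 comparisons, with the number tested in brackets. The HSP90 list has 11 of 12 genes lower after etoposide in Null MEFs and 10 with an interaction above 0; with library size alone 7 were lower and 12 had an interaction above 0.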

How the data were processed

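The authors deposited whole counts of read pairs per gene symbol, without normalization, for 24421 genes and 5 summary lines. The paper's methods name HISAT2, uniquely mapped pairs and HTSeq on GENCODE; the submitters' processing notes name HISAT2, featureCounts and mm10, and the summary lines carry HTSeq's names. The strand setting of the counting and the tool versions are not given. Genes held 53.4 to 63.1% of a library's summed lines; 15.9 to 20.5% were not unique, 20.2 to 27.3% fell outside features and 0.428 to 0.513% were ambiguous. The summary lines were left out, and 2 symbols that occur more than once were kept as they are.

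In R 4.3.3 with edgeR 4.0.16, all 12 libraries entered a single model with a group factor and no block: filterByExpr (15220 genes), TMM, estimateDisp, glmQLFit at its default settings and glmQLFTest, with 5 contrasts and Benjamini-Hochberg adjustment over the whole table at 0.05. Standard errors were obtained by dividing the fold change on the log2 scale by the root of F. The members, gene lists and naming rule were chosen with earlier results of these data known. That rule takes the members, Tfeb, Tfe3, 5 partners (Hsf2, Hsp90ab1, Hspd1, Dnaja1 and Hspa5) and, per comparison, the 3 highest and 3 lowest changes among the other pathway genes that passed and averaged 10 CPM. For Hspa1b, Hsph1 and Bag3 it also takes the 3 genes most like each. ER chaperones were listed beside the pathway.

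Results were recomputed with DESeq2 1.42.0, limma-trend (limma 3.58.1, robust, prior count 2), DESeq2's size factors, library size alone, no filter, a filter at a mean of 1 CPM, the replicate number as a block, robust dispersion, only the 6 libraries compared, and each library left out. Added after seeing the data were the newer quasi-likelihood method of glmQLFit, a fit without both Null libraries numbered 3, the summed counts of Hspa1a and Hspa1b, and spreads and correlations with each library left out. Both quasi-likelihood methods were run before the choice between them was settled; the default was run first and is the one reported, and the newer method calls 7 members higher after etoposide in Null MEFs where the default calls 6. The edgeR fit was tested on simulated data. Coordinates, exon lengths and shared stretches of 75 bases come from GENCODE M21, promoters from RefSeq.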

Additional observations from a re-analysis of the deposited data

Results flagged for a closer look

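By the interaction test of edgeR, the response to etoposide differed between DKO and Null MEFs for the following genes, given as the log2 response in DKO MEFs minus that in Null MEFs. Among the members the difference was 0.54 for Hsf1, 0.23 for Hsph1, -0.91 for Dnajb1 and -0.25 for Bag3. Among their partners it was 0.20 for Hsf2, 0.49 for Hspd1, 0.23 for Dnaja1 and 0.43 for Hspa5. The targeted genes gave 0.49 for Tfeb and 0.28 for Tfe3. Of the other pathway genes, Fkbp5 had 0.82, Lonp1 0.81 and Ubb 0.81, while Cryab had -2.33, Dnajb4 -1.57 and Dnajb5 -1.22. The same test passed for 54.6% of all genes. The interaction of Bag3 did not pass with library size alone (-0.14, adjusted p = 0.0527). That of Hsf2 did not pass with DESeq2's size factors in edgeR (0.14, adjusted p = 0.0616). With groups of 3 libraries, single libraries were not tested as outliers.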

How the results depend on the processing

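Apart from leaving out 1 library, 202 of 216 counts of genes stayed within 1.5 times the reported count, and 497 of 550 single-gene results kept their direction and their side of the threshold. With 1 library left out these were 141 of 144 and 320 of 360. Where a value changed, the cause was not tested.

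With library size alone, 22 other pathway genes were lower after etoposide in Null MEFs, and in DKO MEFs 52 were higher and 8 lower, with 0 members lower; untreated, 39 were lower in DKO MEFs. The members higher in DKO MEFs after etoposide were then 1, and the interaction was above 0 for 5 and below 0 for 1. That setting turned etoposide in DKO MEFs to 0.27 for Hsf1, 0.13 for Hsph1 and 0.21 for Bag3, and the interaction of Hsp90aa1 to 0.064. Members higher in DKO MEFs after etoposide were 0 with DESeq2, with its size factors and with the filter at a mean of 1 CPM, and 4 were lower with no filter. In DKO against Null MEFs after etoposide 3 members were lower with library size alone and with DESeq2's size factors. In that comparison Hspa1b was at -0.0014 with DESeq2, -0.011 with its size factors and -0.015 with the filter at 1 CPM, a filter that put Hsf1 at 0.034 for etoposide in DKO MEFs.

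Without both Null libraries numbered 3, 7 members were lower in untreated DKO MEFs and the interaction was above 0 for 4; Hspa1b was at -0.066 untreated and 0.25 for the interaction, and Hsp90aa1 at 0.0064 for the interaction. Summed with Hspa1b, Hspa1a was at 0.18 untreated and -0.11 for the interaction.

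With 1 library left out, members lower after etoposide in DKO MEFs ranged from 1 to 2 and members higher in DKO MEFs after etoposide from 0 to 2. The log2 fold change of Hsp90aa1 ranged from -0.047 to 0.29 for etoposide in Null MEFs, from -0.033 to 0.29 in DKO MEFs and from -0.19 to 0.16 for the interaction. Hsf1 ranged from -0.045 to 0.016 for etoposide in DKO MEFs. Hspa1b ranged from -0.063 to 0.91 untreated, from -0.35 to 0.25 after etoposide and from -0.86 to 0.12 for the interaction, and Hspa1a from -0.49 to 0.58 after etoposide.

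With the replicate number as a block, the interaction was above 0 for 3 members and 36 other pathway genes, 24 other genes were higher in Null and 18 lower in DKO MEFs after etoposide, and the other counts of members and pathway genes were as reported. Same-numbered libraries of different groups were hardly alike after group means were removed (r from -0.197 to 0.19 over 18 pairs, 1 of them over 0.1), and 3 of 12 libraries were most like their own number, so the numbers were not taken to pair the samples.

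The members are 10 genes and each group has 3 libraries of 1 line, so a difference between the genotypes cannot be told apart from a difference between lines. Pairs that align to several places were not counted, and how many were lost from Hspa1a, Hspa1b, Hspa8, Hsp90aa1 and Hspb1 was not tested. RNA levels do not give protein levels or the activity of HSF1.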

Other observations

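Chaperones of the endoplasmic reticulum, which belong to another stress response, were counted beside the heat shock genes. Of 13 genes, 3 rose and 9 fell after etoposide in Null MEFs (4 and 5 with library size alone), beside 41.7 and 36.8% of all genes, and 3 rose and 8 fell in DKO MEFs (6 and 4 with library size alone), beside 44.0 and 31.3%. In DKO against Null MEFs 9 were higher and 1 lower untreated (8 and 2 with library size alone), beside 33.4 and 34.1%, and 9 higher and 3 lower after etoposide, beside 36.9 and 35.2%. The interaction was above 0 for 3 and below 0 for 5, beside 29.9 and 24.7%, and with library size alone this turned to 5 above and 3 below. Hspa5, the HSP70 of this compartment, was at 1259 ± 21.9 CPM (SD) in untreated Null, 1318 ± 30.2 in untreated DKO, 1026 ± 16.6 in treated Null and 1449 ± 44.1 in treated DKO MEFs. Its log2 fold change after etoposide was -0.30 ± 0.03 in Null MEFs (adjusted p = 5.85e-08 by edgeR) and 0.14 ± 0.03 in DKO MEFs (adjusted p = 0.000394), and the interaction was 0.43 ± 0.04 (adjusted p = 1.17e-07).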
